A study of Mus musculus with 6 samples.

Results

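Scin, Ermn, Cd36, Plxdc2, Exph5, Map9 and Dscam are 7 of the 19938 genes measured on expression arrays of splenic T cells, and all 7 measured higher in rapamycin-treated mice than in mice given phosphate-buffered saline (PBS). Each was found by its symbol in the platform's probe table and was represented by 1 probe set. The genes were chosen from the values of this same comparison. Scin, Ermn, Map9 and Dscam had the smallest p among genes higher with rapamycin over all 6 mice, and Scin, Ermn, Cd36, Plxdc2 and Exph5 were among the 6 genes, or 0.0301% of all, called higher once rapamycin replicate 1 was left out. Over all 6 mice 0% of genes were called higher. Their differences between the groups are therefore a description, and no test is given for them. At the edge of the choice, Dscam had a difference of 0.67 log2 and the next gene, Olfr798, 0.38. Without rapamycin replicate 1, Scin had a difference of 1.32 and the next gene, Lgals7, 0.96, and Gzmf, with 1.82, was called but is not among the 7.

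The mice were B6D2F1/J animals, an F1 hybrid with a B6 parent, lethally irradiated and rebuilt with B6 bone marrow from which T cells had been removed. Some grafts of the protocol also held spleen cells of B6 mice, and no label ties a graft to a mouse. The 3 rapamycin mice had 1.5 mg/kg on alternate days up to day 10, and the 3 control mice had PBS. Sorting for CD3+ spleen cells followed on day 10, so CD4, CD8 and other CD3+ cells are measured together, and each mouse gave 1 array. Values are log2 expression, and differences are rapamycin minus PBS. The first principal component, which held 37% of the variance, set rapamycin replicate 1 (-18.2) and PBS replicates 2 (-11.6) and 1 (-5.2) against PBS replicate 3 (9.5) and rapamycin replicates 3 (12.4) and 2 (13). On the next component, with 21.6%, PBS replicate 1 was the extreme mouse, at 16.3. Rapamycin replicate 1 had the lowest array weight, a measure of how closely an array follows its group, at 0.471, against 0.865 to 1.45 for the others.

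The 7 genes belong to different systems. Rapamycin inhibits the kinase complex mTORC1, which couples growth signals and nutrients to protein and lipid synthesis and to the differentiation of T cells. Scin, Ermn, Exph5 and Map9 encode proteins of the cytoskeleton or of vesicle traffic. Cd36, Plxdc2 and Dscam encode receptors of the cell surface. Several are best known from other cells: Ermn from myelin-forming oligodendrocytes, Dscam from neurons, and Cd36 from macrophages, platelets, fat cells and capillary endothelium. Cd36 is also described in T cells that take up lipid.

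The bases just before the start site are shown for the 3 genes with the largest differences, since the 7 genes were chosen as a group that moved the same way. They are 250 bases each, 5′ to 3′ along the gene's strand, from RefSeq (GRCm38.p6), which held start sites for 6 of the 7 genes. The start site that the table gives for Cd36 lies inside the span RefSeq annotates for the gene, so it is an internal start. Capitals mark a CCAAT box (CCAAT) or a GC box (GGGCGG), read on both strands.
Scin, chr12:40134229-40134478, minus strand: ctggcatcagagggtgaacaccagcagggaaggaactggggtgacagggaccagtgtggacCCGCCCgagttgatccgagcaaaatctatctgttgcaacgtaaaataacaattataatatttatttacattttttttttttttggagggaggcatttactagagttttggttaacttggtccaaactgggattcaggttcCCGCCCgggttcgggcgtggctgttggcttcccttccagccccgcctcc
Ermn, chr2:58052865-58053114, minus strand: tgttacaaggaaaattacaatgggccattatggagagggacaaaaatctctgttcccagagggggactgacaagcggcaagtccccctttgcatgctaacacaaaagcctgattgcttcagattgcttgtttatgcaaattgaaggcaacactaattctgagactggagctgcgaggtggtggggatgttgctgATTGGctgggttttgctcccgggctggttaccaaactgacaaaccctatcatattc
Cd36, chr5:17835897-17836146, minus strand: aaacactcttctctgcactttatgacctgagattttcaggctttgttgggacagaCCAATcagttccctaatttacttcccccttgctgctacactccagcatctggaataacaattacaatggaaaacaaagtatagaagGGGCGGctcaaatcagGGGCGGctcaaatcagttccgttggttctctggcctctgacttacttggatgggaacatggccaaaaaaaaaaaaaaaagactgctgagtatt

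The 6 genes with start sites had 7 windows, since Map9 had a further start site. A CCAAT box occurred in a window of Cd36, Ermn, Exph5 and Map9, and in 33.8% of all 32851 windows of that length in the table. The CCAAT box and the TATA box of Map9 lay in different windows. A GC box occurred in Cd36, Exph5 and Scin, and in 32.7% of all windows. Further motifs searched on both strands were a TATA box (TATAAA, in Map9 and in 12.4% of windows), a RUNX motif (TGTGGT, in Exph5 and in 14% of windows), a FOXO core (TGTTTAC, 3.17% of windows), the E-box read by TFEB and MYC (CACGTG, 6.02%), an AP-1 motif (TGANTCA, 6.75%), a CRE (TGACGTCA, 1.55%) and a STAT motif (TTCNNNGAA, 7.02%). The last 5 were in no window of the 7 genes. No motif was common to all of the windows. These matches are a description of letters and show no binding.

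Scin encodes scinderin, also called adseverin, a calcium-dependent protein of the gelsolin family that severs and caps actin filaments and is known from secretory cells. Its level was 5.29, 5.47 and 5.65 in PBS replicates 1, 2 and 3, and 6.36, 6.94 and 6.63 in rapamycin replicates 1, 2 and 3. The groups did not overlap, and the gap between the lowest rapamycin mouse and the highest PBS mouse, 0.72 log2, exceeded the spread within either group. The means were 5.47 ± 0.18 and 6.65 ± 0.29 (SD, n = 3 each), a 2.26-fold higher level. Over all 19938 genes, every rapamycin mouse lay above every PBS mouse in 3.14%. All 7 genes were of this kind, which follows from how they were chosen.

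Ermn encodes ermin, an actin-binding protein that resembles the ezrin, radixin and moesin (ERM) family at its end. It measured 7.84, 7.77 and 7.78 in the PBS mice, which lay within 0.06 log2 of each other. The rapamycin mice measured 8.45, 9.46 and 9.0, a range of 1.01. The lowest of them still lay 0.61 above the highest PBS mouse. The difference of the means was 1.17, or 2.26-fold, and 1.44, or 2.71-fold, with replicates 2 and 3 alone.

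Exph5 encodes exophilin 5, an effector of the small GTPase RAB27 that links secretory vesicles to their release. The PBS mice measured 4.57, 4.81 and 4.91 and the rapamycin mice 5.0, 5.99 and 5.85. Replicate 1 lay 0.09 above the highest PBS mouse, and replicates 2 and 3 at least 0.94 above it. The difference was 0.85 over all mice and 1.16 without replicate 1.

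Map9 encodes a microtubule-associated protein of the mitotic spindle. It measured 4.78, 4.99 and 5.10 with PBS and 5.41, 5.55 and 5.61 with rapamycin. Here the 3 rapamycin mice lay close together, within 0.19 log2, and replicate 1 was 0.14 below the next. The difference, 0.57 or 1.48-fold, was the smallest of the 7.

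Cd36 encodes a scavenger receptor that takes up long-chain fatty acids and oxidised lipoproteins. With PBS it measured 4.74, 4.82 and 4.78, a range of 0.09. With rapamycin it measured 4.94, 6.52 and 6.07. Replicate 1 was only 0.12 above the highest PBS mouse, and replicates 2 and 3 were 1.25 or more above it. The mean was 5.84 ± 0.82 (SD, n = 3). The PBS means of Cd36 and Exph5, 4.78 and 4.76, lay below the 25th percentile of gene means on these arrays, 4.94, where RMA compresses values, and whether the genes were detected there was not tested. The Cd36 fold was 2.09 over the 3 mice, 2.86 for replicates 2 and 3 and 1.12 for replicate 1.

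Plxdc2 encodes a membrane protein with a plexin-like domain that is described as a receptor for pigment epithelium-derived factor. The PBS mice measured 8.18, 8.06 and 8.29. The rapamycin mice measured 8.34, 9.15 and 9.20. The gap between the groups was 0.05, smaller than the PBS range of 0.23, and came from replicate 1, since replicates 2 and 3 differed by 0.05 and lay at least 0.86 above the PBS mice. The difference was 0.72 with and 1.0 without replicate 1.

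Dscam encodes an adhesion molecule of the immunoglobulin superfamily that takes part in the wiring of neurons and binds netrin. The PBS mice lay within 0.07 of each other, at 5.57, 5.60 and 5.64. The rapamycin mice measured 6.12, 6.60 and 6.10. Replicates 1 and 3 were level and replicate 2 stood 0.50 above the lowest, an order seen in no other of the 7 genes. The difference was 0.67, or 1.59-fold.

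**Figure D1:**
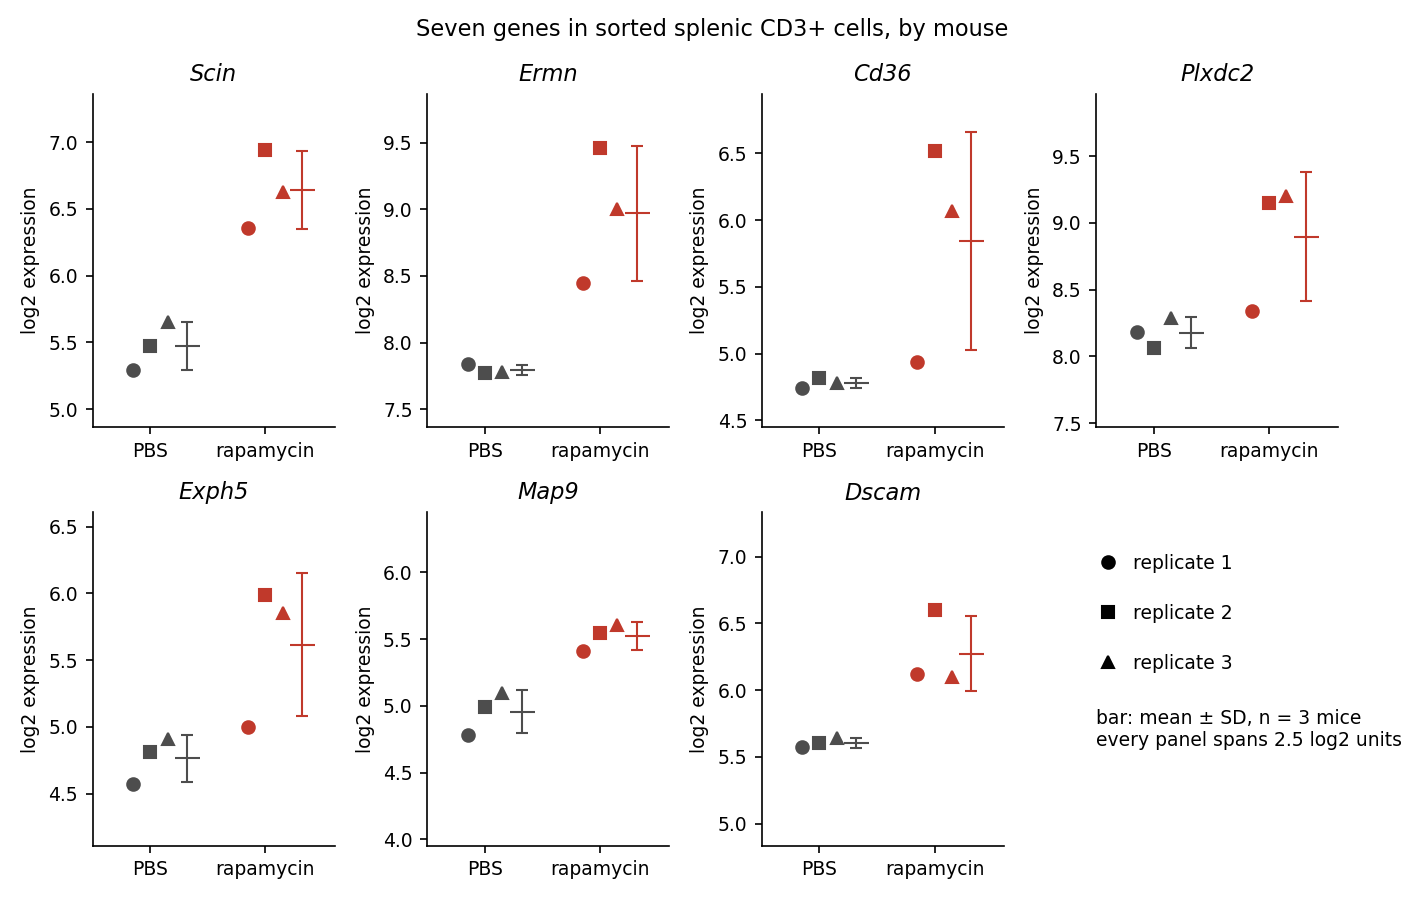
Log2 expression of each of the 7 genes (y axis, every panel spanning the same number of log2 units) in the 3 PBS mice (grey) and the 3 rapamycin mice (red), with the symbol giving the replicate and the bar the mean ± SD. Cd36, Plxdc2 and Exph5 have rapamycin replicate 1 within 0.12 of the highest PBS mouse, and Scin, Ermn, Map9 and Dscam have it at least 0.31 above.

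The distance of rapamycin replicate 1 from the PBS mice differed among the 7 genes, and the way they were chosen bears on it: Scin, Ermn, Map9 and Dscam were chosen over all mice, and Cd36, Plxdc2 and Exph5 only without that mouse. In Scin, Map9 and Dscam its distance from the PBS mean was 68%, 73.3% and 69.8% of the mean distance of replicates 2 and 3. In Ermn it lay between, at 45.3%, and in Exph5, Plxdc2 and Cd36 20.7%, 16.3% and 10.5%. Replicate 1 was the lowest rapamycin mouse in 6 of the 7 genes, Dscam being the exception, where over all 19938 genes it was the lowest in 36.9%. The choice of genes without replicate 1 favours this order, so the count is a description. Replicate 2 was the highest in 5 genes, and replicate 3 in Plxdc2 and Map9. Among the PBS mice, replicate 3 was the highest in 5 of the 7 genes and replicate 1 the lowest in 5, over ranges of 0.06 to 0.35 log2.

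Beyond the 7, a total of 68 genes, or 0.341%, had replicates 2 and 3 above every PBS mouse and at least 0.5 log2 above the PBS mean, 6 of the 7 among them and Dscam just outside. Selecting genes on high replicates 2 and 3 favours a lower replicate 1, which was the lowest rapamycin mouse in 98.5% of the 68, so what follows is a description. In 23 of the 68 genes, or 33.8%, replicate 1 also lay above every PBS mouse, in 36 it lay within the PBS range and in 9 below it. Over all 19938 genes replicate 1 lay above every PBS mouse in 24.6%. The median share of the distance kept in replicate 1 was 18.3% over these 68 genes (quartiles -12.3% and 38.8%).

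**Figure D2:**
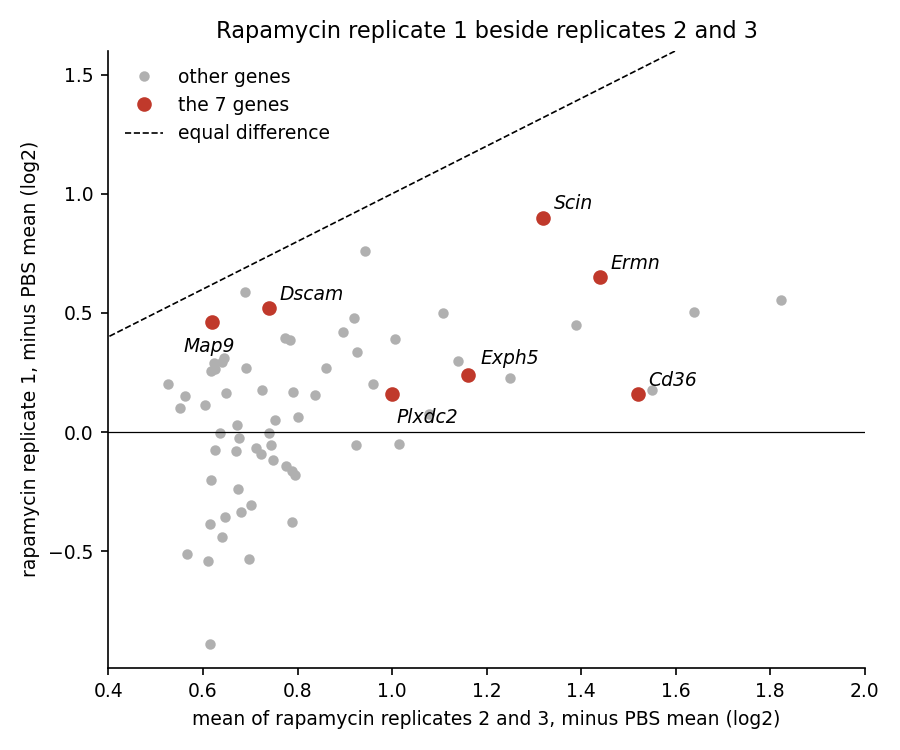
Distance of rapamycin replicate 1 from the PBS mean (y axis, log2) against the mean distance of replicates 2 and 3 (x axis, log2). Red points are the 7 genes. Grey points are from the 62 other genes with replicates 2 and 3 above every PBS mouse and at least 0.5 log2 above the PBS mean. Of these, Penk, at 2.23 on the x axis and 0.94 on the y axis, lies beyond the plotted range. Scin and Ermn lie at 0.90 and 0.65 on the y axis, while Cd36, with the largest x value of the 7 at 1.52, lies at 0.16.

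The genes also differed in which other genes followed them from mouse to mouse. Likeness was taken as the mean absolute difference between the log2 values of a pair of genes over the 6 mice, after subtracting each gene's own mean. Because the genes share the mice and were chosen by one comparison, it is a description. Plxdc2 and Exph5 were each other's nearest gene of 19938, with a mean difference of 0.0996 log2. Scin and Ermn were each other's nearest gene too, at 0.152, and Cd36 came next for Ermn, at 0.154.

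Outside the 7, the genes nearest to Scin were Dclk1, a microtubule-binding kinase, and Plk2, a kinase of the polo-like family. Plk2 was also the third nearest of Ermn, and Gzmf, a granzyme of cytotoxic T cells, was the third nearest of Cd36. Plk2 measured 5.52, 5.79 and 6.18 with PBS and 6.28, 7.53 and 6.91 with rapamycin, and Gzmf 6.0, 6.08 and 5.44 against 6.40, 7.70 and 7.63. In both genes replicate 1 lay nearest to the PBS mice. Il12rb2, a chain of the IL-12 receptor, was near both Plxdc2 and Dscam, with 10.42, 10.37 and 10.56 against 10.78, 11.60 and 11.15. Plxdc2 also had Olfml2a near it, and Exph5 had the tetraspanin gene Cd81 and the galectin gene Lgals7. Map9 had no member of the 7 among its nearest 3, which were Etv5, Zc3h12c and Olfr45, and those of Dscam were Cd70, Il12rb2 and Cntln.

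For each of the 7 genes a list of its relatives and partners was tested in the same comparison. Of 135 measured genes in the 7 lists, 0 were called by limma at an adjusted p under 0.05, where 1 gene of all 19938, or 0.00502%, was called, a gene that was lower. At an unadjusted p under 0.05 there were 10 of the 135, 3 higher and 7 lower, or 7.41%, against 4.67% of all genes. The median difference was 0.01 over the 135 genes and -0.01 over all genes. Leaving out rapamycin replicate 1 also gave 0 calls among them.

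The gelsolin relatives of Scin lay near 0. Of 15 measured genes 5 were higher and 10 lower, with a median of -0.04 and a range of -0.10 to 0.27. Gelsolin itself, Gsn, measured 8.67 ± 0.14 with PBS and 8.61 ± 0.11 with rapamycin (SD, n = 3 each). Capg, which caps actin filaments, had the largest difference of the list, 0.27 (SE 0.15), with 10.20, 10.65 and 10.75 in rapamycin replicates 1, 2 and 3. Its replicate 1 lay inside the PBS range of 10.06 to 10.38, and with replicates 2 and 3 alone the difference was 0.44. The actin-depolymerising genes Dstn and Cfl2 differed by 0.19 (SE 0.12) and 0.18 (SE 0.10).

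For Ermn, the ERM proteins and their partners were lower in 9 of 14 measured genes, with a median of -0.06. With rapamycin replicates 2 and 3 alone 7 were higher and 7 lower, with a median of 0.00. The list mean was 10.08 to 10.15 with PBS and 10.05 to 10.07 with rapamycin, so every rapamycin mouse lay slightly below every PBS mouse. Msn, the main ERM protein of lymphocytes, differed by -0.08 (SE 0.10) and Ezr by 0.04 (SE 0.09). Stk10, a kinase that phosphorylates ERM proteins in lymphocytes, was at -0.22 (SE 0.08), and the adhesion ligands Selplg and Icam2 at -0.15 and -0.20.

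Among the partners of Cd36, which cover fatty acid uptake and its control by PPAR factors, 19 of 27 measured genes were higher, with a median of 0.05. Plin2, which coats lipid droplets, measured 9.46, 9.06 and 9.40 with PBS and 9.43, 9.80 and 10.32 with rapamycin, a difference of 0.55 (SE 0.21, limma adjusted p = 1). Lpl, lipoprotein lipase, differed by 0.39 (SE 0.18). With replicates 2 and 3 alone the differences were 0.76 for Plin2 and 0.56 for Lpl. In both genes rapamycin replicate 1 lay within the PBS range and replicate 3 was the highest mouse, whereas in Cd36 replicate 2 was the highest. The related receptors Scarb1 and Scarb2 differed by 0.03 (SE 0.14) and 0.13 (SE 0.09). Rxra, the partner of PPAR factors on DNA, was at -0.28 (SE 0.12) and the kinase Fyn, which signals below CD36, at -0.18 (SE 0.08).

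The closest relative of Plxdc2 differed in the other direction. Plxdc1 measured 8.18, 8.16 and 8.29 with PBS and 7.90, 7.75 and 7.84 with rapamycin. The groups did not overlap, and replicate 1 lay with replicates 2 and 3. Of the 135 listed genes 9 had every rapamycin mouse below every PBS mouse, Plxdc1 among them. The share of all genes in this direction was not computed, so the count sets nothing apart. In the opposite direction there were 6 of the 135, or 4.44%, against 3.14% of all genes. The difference was -0.38 (SE 0.08), and it was not called (limma adjusted p = 0.814). The list held 6 higher and 7 lower genes of 13, with Plxna1 at -0.19 and Plxnd1 at -0.14.

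RAB27 effectors and exocytosis genes, the setting of Exph5, were higher in 11 of 20 genes with a median of 0.02. Rab27a, which cytotoxic T cells need to release their granules, measured 10.37 ± 0.15 with PBS and 10.36 ± 0.03 with rapamycin. Rab27b differed by 0.03 (SE 0.08). Sytl3 and Sytl2, synaptotagmin-like RAB27 effectors, differed by -0.29 (SE 0.12) and -0.20 (SE 0.11), and the myosin gene Myo5a by 0.13 (SE 0.07).

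Of the 23 measured microtubule genes listed for Map9, 9 were higher and 14 lower, with a median of -0.03. Dclk1 stood outside this range, with 6.45, 7.22 and 6.88 against 7.35, 8.07 and 7.84, a difference of 0.90 (SE 0.22, limma adjusted p = 0.814). Map4 and Map7 differed by -0.03 and 0.01, and the mitotic genes Plk1 and Tpx2 by -0.23 (SE 0.09) and -0.14 (SE 0.08).

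The relatives of Dscam, netrin receptors and other adhesion molecules, were higher in 14 of 23 genes, with a median of 0.05. Dscaml1, its paralogue, differed by 0.11 (SE 0.11), and Dcc, a netrin receptor, by 0.21 (SE 0.08). L1cam, an adhesion molecule of neurons and lymphocytes, measured 8.73, 8.39 and 8.52 with PBS and 8.11, 7.95 and 8.08 with rapamycin, a difference of -0.50 (SE 0.10, limma adjusted p = 0.793). Unc5d was at -0.25 (SE 0.11).

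**Figure D3:**
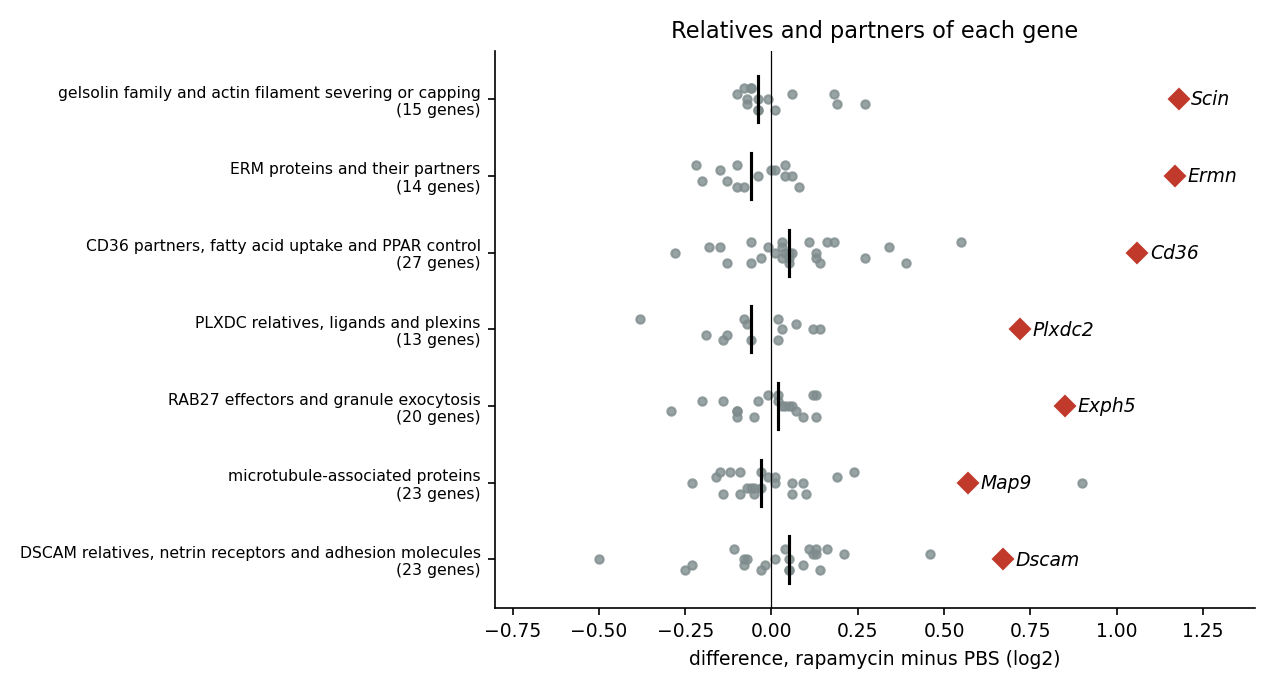
Difference between rapamycin and PBS (x axis, log2) for each of the 7 genes (red diamonds) and for the measured genes of its list of relatives and partners (grey points, with the list's median as a black bar). The medians lie between -0.06 and 0.05, and Dclk1, at 0.90, is the only listed gene beyond the member of its own list, Map9 at 0.57.

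Markers of T cells and of the other cells of the spleen were read in the same arrays. The T cell markers were high: Cd3e measured 12.78 to 12.92 in all 6 mice, and the mean of 12 T cell genes 11.06 to 11.30 with PBS and 11.07 to 11.25 with rapamycin. Cd4, which marks helper T cells, was less even, with 11.59, 11.70 and 12.05 in the PBS mice and 11.46, 12.28 and 12.01 in rapamycin replicates 1, 2 and 3. Among the rapamycin mice this is the order of Scin, Ermn, Cd36 and Exph5, though the Cd4 groups overlapped, and replicate 1 lay 0.32 below the PBS mean. Cd8a, of cytotoxic T cells, was 11.57 to 11.88 with PBS and 11.70 to 11.78 with rapamycin. The part of the mix of T cells in the 7 genes was not tested. Of 107 marker genes in 11 lists 0 were called by limma, with 13 at an unadjusted p under 0.05, or 12.1% against 4.67% of all genes, and no list mean separated the groups. RMA values have no zero, so absence of a cell type cannot be read from them. In sorted bulk samples, more cells of a type and more RNA per cell cannot be told apart.

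Macrophage markers, which matter beside Cd36, were lower in 14 of 15 measured genes, with a median of -0.36, and with rapamycin replicates 2 and 3 alone in 11, with a median of -0.30. The list mean was 7.36 to 8.0 with PBS and 7.05 to 7.49 with rapamycin. Its genes were not alike in the single mice. Spic, a factor of red pulp macrophages, was at 5.77, 5.84 and 5.50 in rapamycin replicates 1, 2 and 3, all below the 6.70 to 7.51 of the PBS mice. Adgre1, which encodes a surface antigen of mouse macrophages, was at 7.26, 7.67 and 8.49, and Csf1r, the receptor for M-CSF, at 9.05, 9.43 and 9.91. For both of these, as for Cd36, replicate 1 was the lowest rapamycin mouse, but replicate 3 and not replicate 2 was the highest. Most other genes of the list had replicate 2 or 3 as the lowest rapamycin mouse. Adgre1 was the only gene of the list with a positive group difference, at 0.10. Monocyte markers were higher in 5 of 6 genes, with list means 0.17 below, 0.05 above and 0.51 above the PBS mean in replicates 1, 2 and 3. The part of these cells in the Cd36 values was not tested.

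Neutrophil genes set rapamycin replicate 1 apart in the opposite sense. The list mean of 13 genes was 9.75 in that mouse, against 8.45 and 8.94 in the other rapamycin mice and 7.83 to 9.28 with PBS. All 13 had positive group differences over the 3 rapamycin mice, with a median of 0.44, Mpo at 0.04 and Elane at 0.61 (SE 0.30). With replicates 2 and 3 alone 7 were positive and 6 negative, with a median of 0.05, Mpo at -0.59 and Elane at 0.48. The erythroid list mean was highest in replicate 2, at 6.84, against 6.59 and 6.48 in the other rapamycin mice and 6.29 to 6.53 with PBS. Of its 6 measured genes some, Alas2 and Slc4a1 among them, were highest in replicate 2 among the rapamycin mice, and others in replicate 1. Replicate 2 was also the highest mouse for Scin, Ermn, Cd36, Exph5 and Dscam. The part of either cell type in these genes was not tested.

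Other lists bore on single genes. The 14 measured myelin and oligodendrocyte genes, where Ermn is best known, had a median of 0.03 and a mean of 5.58 to 5.62 with PBS and 5.57 to 5.71 with rapamycin. Their highest mean was in rapamycin replicate 1, the lowest of the rapamycin mice for Ermn. Whether such cells had a part in the Ermn values was not tested. Mbp and Mog differed by -0.14 and 0.08. Platelet markers were lower in 5 of 7 genes and higher in 2, with a median of -0.05, Pf4 at -0.08, Ppbp at 0.01 and Itga2b at -0.05. The PBS means of Pf4 and Ppbp, 3.81 and 4.47, lay below the 25th percentile of gene means, 4.94. The endothelial and stromal list had 5 higher and 5 lower genes of 10, with a median of 0.01. Of its endothelial genes Cdh5 and Pecam1 were at -0.31 (SE 0.09) and -0.28 (SE 0.10). Its other endothelial genes, Kdr among them, lay between -0.08 and 0.08. Dcn, a matrix gene of stromal cells, was at 0.35 (SE 0.11), and the other stromal genes of the list lay between -0.12 and 0.08. The part of platelets and endothelium in the Cd36 values was not tested. B cell genes had a median of 0.01 (range -0.54 to 0.07), dendritic cell genes -0.10 (-0.38 to 0.20) and natural killer cell genes -0.25 (-0.65 to 0.40). The lowest B cell gene was Cd79b, at -0.54 (SE 0.11, limma adjusted p = 0.747).

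**Figure D4:**
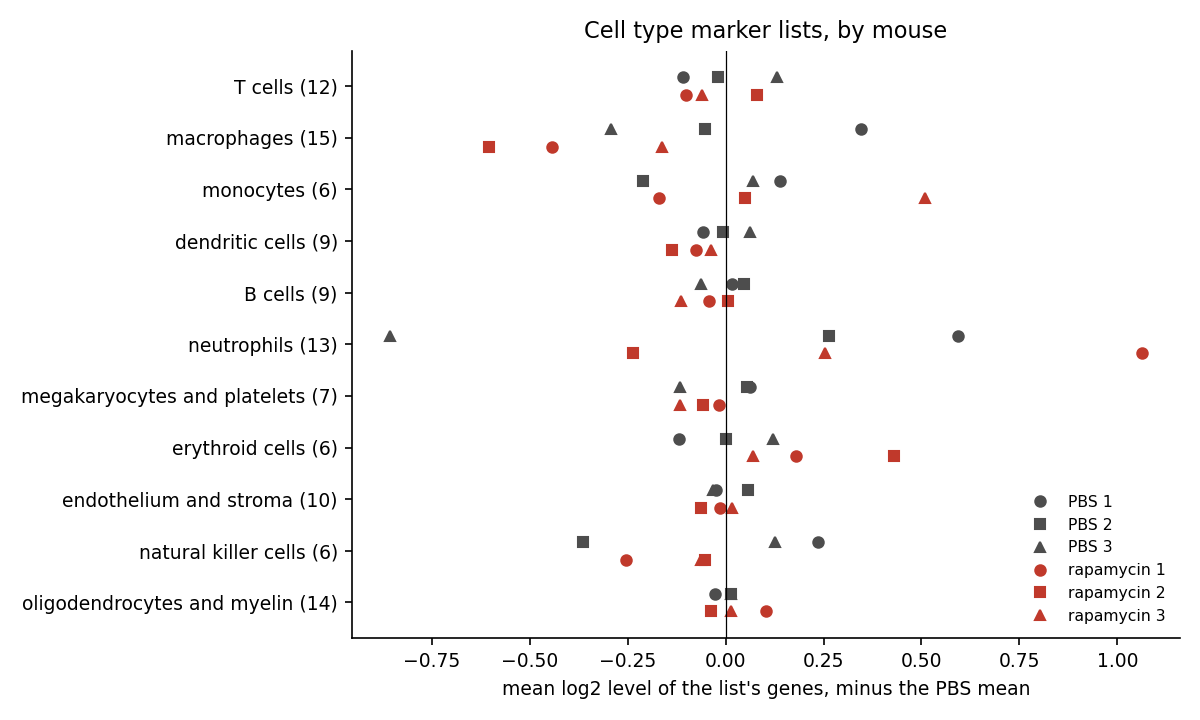
Mean log2 level of each cell type marker list minus its PBS mean (x axis), for the 3 PBS mice (grey) and the 3 rapamycin mice (red), with the symbol giving the replicate and the number of genes in brackets. Rapamycin replicate 1 lies 1.06 above the PBS mean for neutrophil genes, and T cell genes lie within 0.10 of it in the 3 rapamycin mice.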

How the data were processed

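RNA of sorted CD3+ spleen cells was measured on 1 Affymetrix array per mouse, 3 rapamycin and 3 PBS, grouped and numbered by the sample titles. The submitters' processing notes name RMA and Affymetrix Expression Console. The authors' deposited values are log2 expression, background-corrected and normalized between arrays, so a shift shared by most genes would not be seen and weak signals are compressed. For software versions, probe library and genome build: not given in the sources used here. Array medians lay between 6.03 and 6.17, and 3 arrays per group limit the precision.

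Of 35556 probe sets, 21789 carried 1 gene symbol, 1621 several and 12146 none. The probe set with the highest mean stood for each of 19938 genes. Differences were tested with limma 3.58.1 in R 4.3.3 (lmFit, eBayes, group as the only term, Benjamini-Hochberg over all genes, two-sided, called at an adjusted p under 0.05), and the script was tested on simulated data. Of 140 listed pathway genes 135 were measured. The 7 genes, the lists and the tests were chosen with earlier results of these data known.

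The rule for named genes took the 7 genes, from each pathway list those called or the 3 with the smallest p plus set close relatives, from each marker list up to 3 leading genes, and for each of the 7 genes the 3 nearest by likeness. Not every gene it allows is printed. Olfr798, at the edge of the choice, and Lpl, Penk, Spic, Dcn, Cd4 and Cd8a fall outside it and are shown after their values were seen. Alternatives were leaving out each mouse, the replicate block, array weights, a trended robust prior, dropping the lowest 50% of genes, the mean of a gene's probe sets, quantile normalization and subtracting array medians. Plots used matplotlib 3.10.9 (Python 3.11.15).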

Additional observations from a re-analysis of the deposited data

How the results depend on the processing

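Over 13 alternatives none of the 7 differences changed sign, and each stayed within 1 SD of its value as reported. Leaving out each mouse gave 1.03 to 1.32 for Scin, 0.93 to 1.44 for Ermn, 0.72 to 1.52 for Cd36, 0.57 to 1.0 for Plxdc2, 0.66 to 1.16 for Exph5, 0.48 to 0.64 for Map9 and 0.51 to 0.76 for Dscam. The highest of these came without rapamycin replicate 1 for the first 5, without PBS replicate 3 for Map9 and without rapamycin replicate 3 for Dscam. Array weights or the other settings gave up to 1.31 for Cd36. Of the 7 only Ermn and Plxdc2 remained after the lowest 50% of genes were dropped. The count of genes called higher was 0, and 0 to 6 with 1 mouse left out, the 6 without rapamycin replicate 1. The count called lower was 1, and 0 to 1 with 1 mouse left out, with 0 without any mouse other than rapamycin replicate 1. With the replicate block it was 0. The sample titles name no pairing by replicate number. Deviations of same-numbered mice correlated at 0.086, -0.192 and 0.195, and 2 of 6 mice matched their own number best. With 3 mice per group, these values cannot show whether same-numbered mice were handled together. Of the 135 pathway genes 0 were called under any of the 13.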

Other observations

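The 250 bases before the start site of Cd36 held a stretch of 16 bases, aggggcggctcaaatc, in tandem, with copies starting 111 and 95 bases before the start site. Each copy contains a GC box. This start site lies inside the annotated span of the gene. A repeated stretch at least this long was found in 1.98% of all 32851 windows, and in the other windows of the 7 genes the longest was 6 to 10 bases. The data hold no measurement of binding or of start site use at this repeat.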
